A study of Mus musculus with 6 samples.

Results

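The 9 megakaryocyte and platelet genes described here were Vwf, Itga2b, Pf4, Gp1bb, Gp5, Gp9, Selp, F2rl2 and Tmem40, out of 22969 Ensembl gene identifiers counted in sorted mouse hematopoietic stem cells. They were chosen by name as genes of platelet-biased stem cells and megakaryocytes, together with Tmem40, with their read counts in these same 6 libraries, and so the contrast described here, already known. For that reason the members' differences are given as a description with no p of their own, and the counts of calls given later serve only to set them beside all genes. Each member matched 1 identifier on 1 row of the table, and all 9 passed the filter on low counts.

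The study concerns Rbfox2, which encodes a splicing regulator, in the self-renewal and proteostasis of these cells. The Rbfox2-deleted mice carried Vav1-cre and 2 floxed Rbfox2 alleles (Vav1-cre; Rbfox2-fl/fl), and the controls carried the same floxed alleles without Cre (Rbfox2-fl/fl). Both groups were adult C57BL/6 mice with 3 libraries each, and each library came from about 500 bone marrow cells sorted as lineage-negative, Sca-1+, c-Kit+, CD150+ and CD48-. Vav1 regulatory sequences drive Cre across the blood lineages, so deletion is not limited to stem cells, and the controls carried no Cre. Controls 1 and 3 were nearly identical (chi-square per degree of freedom 3.44, against 156 to 808 for all other pairs of libraries) and were counted as 1 sample, which left 3 libraries labelled Rbfox2-deleted against 2 control samples.

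Megakaryocytes are the bone marrow cells that shed platelets. Part of the stem cell pool is known to be primed towards this lineage, and Vwf and CD41, the product of Itga2b, are used to mark it in the mouse. On the platelet surface the GPIb-IX-V complex binds von Willebrand factor at a vessel wound, the integrin of Itga2b and Itgb3 binds fibrinogen, and receptors for thrombin and thromboxane start activation. Activated platelets then empty granules that hold von Willebrand factor and platelet factor 4 and bring P-selectin to the surface. GATA1 and the ETS factor FLI1 are the transcription factors best known to switch these genes on.

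The stretches upstream of 6 members are shown so that members lying above control (Gp5 and Selp) can be read beside members lying below it (Gp9, F2rl2, Tmem40 and Pf4), although the groups overlapped for Selp and nearly touched for Pf4. Sequences came from RefSeq (GRCm38.p6, the build that mm10 names), whose table had entries for 8 of the 9 members and none for Vwf. Each run is the nearest 150 bases upstream of the start that lie outside annotated exons, written 5′ to 3′ on the strand of the gene. Capitals mark 2 kinds of 6-letter word, sought on both strands. GATA words are GATAA or GATAG with A or T in front, which GATA factors are known to bind, and words of the ETS class are GGAAG with A or C in front. Gp5 lies at chr16:30310782-30310931 (minus strand), Gp9 at chr6:87777920-87778069 (plus), F2rl2 at chr13:95696703-95696852 (plus), Tmem40 at chr6:115762467-115762616 (minus), Pf4 at chr5:90772285-90772434 (plus) and Selp at chr1:164115114-164115263 (plus).
Gp5: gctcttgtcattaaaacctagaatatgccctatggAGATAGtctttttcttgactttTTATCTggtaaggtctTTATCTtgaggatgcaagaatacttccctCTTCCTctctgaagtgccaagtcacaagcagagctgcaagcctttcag
Gp9: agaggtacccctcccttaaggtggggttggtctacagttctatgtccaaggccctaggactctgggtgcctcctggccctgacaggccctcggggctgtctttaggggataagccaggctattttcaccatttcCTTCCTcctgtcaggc
F2rl2: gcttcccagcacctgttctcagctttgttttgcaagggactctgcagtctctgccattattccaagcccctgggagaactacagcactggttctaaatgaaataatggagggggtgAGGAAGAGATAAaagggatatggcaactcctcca
Tmem40: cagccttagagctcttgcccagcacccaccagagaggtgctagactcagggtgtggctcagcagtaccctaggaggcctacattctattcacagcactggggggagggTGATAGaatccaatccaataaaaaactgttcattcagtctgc
Pf4: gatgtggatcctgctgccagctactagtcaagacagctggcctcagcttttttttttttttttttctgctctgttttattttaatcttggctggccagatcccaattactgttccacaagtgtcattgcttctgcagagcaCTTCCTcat
Selp: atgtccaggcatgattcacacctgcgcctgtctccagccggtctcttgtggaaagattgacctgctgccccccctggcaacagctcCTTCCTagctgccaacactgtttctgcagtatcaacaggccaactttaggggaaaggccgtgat

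Over the whole 300-base windows of the table, 6 of the members' 9 entries (66.7%; Tmem40 had 2 entries) held a GATA word, against 29.8% of 32851 entries of all genes. An ETS word was in 8 of the 9 (88.9%, against 46.5% of all), and both kinds were in 5 (55.6%, against 12.6%). Gp5 held 3 GATA words, at 115, 93 and 77 bases before its start. In F2rl2 an ETS word and a GATA word stood side by side without overlap. These matches describe letters only. Genes whose counts lay on opposite sides of control, such as Gp5 and F2rl2, both held both kinds.

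The libraries labelled Rbfox2-deleted held 23474895, 35650284 and 33345370 counts (libraries 1, 2 and 3), and the controls 47895459, 51643037 and 55151484, so every library labelled Rbfox2-deleted was shallower than any control. Rbfox2 itself had 2, 87 and 10 counts in the libraries labelled Rbfox2-deleted, against 238, 11 and 250 in the controls. In CPM, the count scaled to a common library total, the library labelled Rbfox2-deleted 2 stood at 2.44 and control 2 at 0.213. That order runs against the labels. The counts are per gene and do not show the floxed part of Rbfox2 apart, so they cannot settle whether the labels hold. Every direction below rests on the labels. The log2 fold change of Rbfox2 was -1.49 (SE 2.0, edgeR adjusted p = 0.923). Rbfox2-deleted 1 stood apart. Of the 5185 genes with at least 500 counts in each of the other 5 libraries, it had 0 counts for 208 (4.01%), while no other library had more than 1 such gene. It and Rbfox2-deleted 3 had 2821 and 2467 counts of Xist and 0 of the Y-linked Eif2s3y, while the other 4 libraries had at most 55 of Xist and at least 576 of Eif2s3y, so sex was not balanced between the groups. Of the genes of the gate, Kit, Ly6a and Slamf1 were above 9 CPM in each library and Cd48 was at 0 counts in 5 of 6. Endothelial cells also make von Willebrand factor. Their 8 markers summed to 443, 258 and 247 CPM in the libraries labelled Rbfox2-deleted, against 284, 120.0 and 284 CPM in the controls. Most of that was Cldn5 (56.6 to 256 CPM) and Emcn (53.4 to 182 CPM), while Cdh5 was at most 0.0561 CPM in any library. The part of these markers in the results was not tested.

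A pair of subunits of the von Willebrand factor receptor lay on opposite sides of control. Gp9 (chr6:87778072-87779768, plus strand, mm10 as for all genes below) encodes the small subunit GPIX, which the complex needs to reach the surface. Its values were 33.4, 86.2 and 130.0 CPM in libraries 1, 2 and 3 labelled Rbfox2-deleted, against 186, 135 and 181 CPM in the controls. The groups did not overlap, although Rbfox2-deleted 3 came within 5 CPM of control 2. Means over samples were 83.2 ± 48.4 CPM (SD, n = 3) and 159 ± 34.2 CPM (SD, n = 2), and the log2 fold change was -1.08 (SE 0.489). Gp5 (chr16:30307685-30310779, minus strand) encodes GPV, the subunit that thrombin cleaves. Its values were 23.4, 30.3 and 52.9 CPM in libraries labelled Rbfox2-deleted, against 10.5, 9.72 and 11.4 CPM in the controls. Every library labelled Rbfox2-deleted lay above every control, with the lowest of them, Rbfox2-deleted 1, still clear of the highest control. Mean levels of Gp5 were 35.5 ± 15.4 CPM (SD, n = 3) and 10.3 ± 0.867 CPM (SD, n = 2), with a log2 fold change of 1.66 (SE 0.762).

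Gp1bb (chr16:18620317-18622403, minus strand) encodes GPIbβ, the chain joined to the ligand-binding GPIbα by disulphide bonds. It had 0, 6.82 and 13.9 CPM in libraries labelled Rbfox2-deleted, against 11.5, 14.8 and 10.7 CPM in the controls. The groups overlapped, and the difference rested on Rbfox2-deleted 1, where 0 counts allow a level of up to 0.157 CPM (95% exact interval, counting error only). Its log2 fold change was -1.14 (SE 1.96), and -0.58 (SE 0.672) without that library. Sept5 on the same strand covers 91.1% of the exon bases of Gp1bb, and Gm49601, also on that strand, covers 41.5%. Reads of these genes cannot be told apart there, so the counts of Gp1bb are uncertain. Sept5 was listed with 0, 38 and 16 counts in libraries labelled Rbfox2-deleted, against 4, 11 and 5 in the controls. Gp1ba, which encodes the ligand-binding chain itself, had 0, 5.27 and 1.71 CPM in libraries labelled Rbfox2-deleted, against 0.752, 0 and 0.78 CPM in the controls, with an edgeR adjusted p = 0.904.

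**Figure D1:**
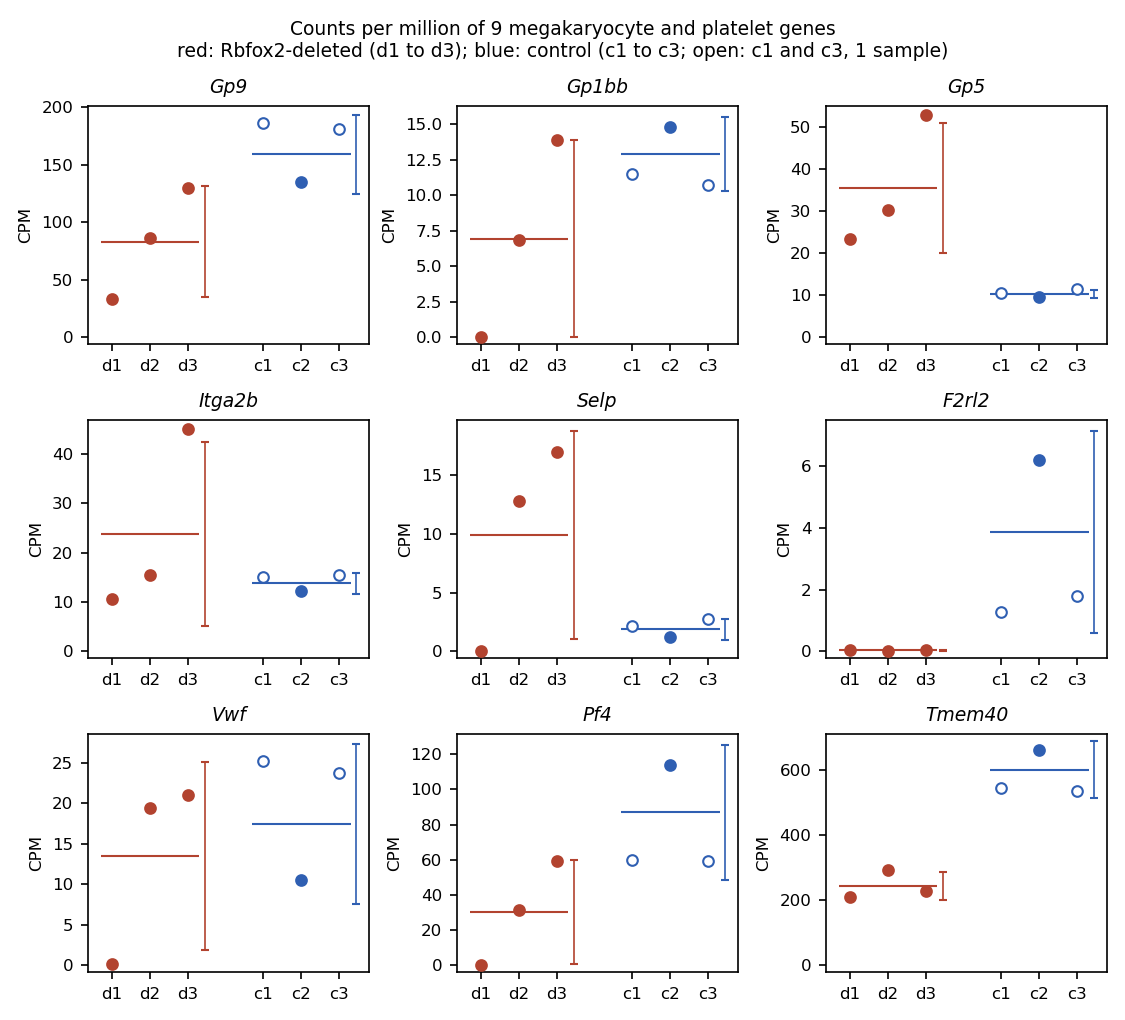
CPM of each member (vertical axis, linear) in the 3 libraries labelled Rbfox2-deleted (d1 to d3, red) and the 3 controls (c1 to c3, blue; open circles are controls 1 and 3, counted as 1 sample). Horizontal lines are means over samples and bars are SD, ended at 0 where the SD exceeds the mean. Gp5 lies above control in all 3, Gp9, F2rl2 and Tmem40 lie below it in all 3, and Vwf, Pf4, Gp1bb and Selp sit at or near 0 in d1.

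Ratios between subunits inside a library do not depend on library scaling. These pairs were chosen after their values were seen. The ratios can still carry a length bias that differs between libraries, which dividing by length does not remove. With a correction for transcript length the log2 fold change of Gp9 went from -1.08 to -0.29 and that of Gp5 from 1.66 to 1.62. Per kilobase of transcript, Gp5 stood at 0.281, 0.141 and 0.163 of Gp9 in libraries 1, 2 and 3 labelled Rbfox2-deleted, against 0.0226, 0.0289 and 0.0251 in the controls. The lowest of the first set was over 4 times the highest of the second. Gp1bb stood at 0, 0.0334 and 0.0451 of Gp9 in libraries labelled Rbfox2-deleted, against 0.0261, 0.0463 and 0.025 in the controls, and these values overlapped. Gp5 stood at 4.22 and 3.62 of Gp1bb in Rbfox2-deleted 2 and 3, with no Gp1bb reads in Rbfox2-deleted 1, while in the controls the ratios were 0.868, 0.625 and 1.01. Ratios with Gp1bb are uncertain, since most of its exon bases are shared with Sept5.

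**Figure D2:**
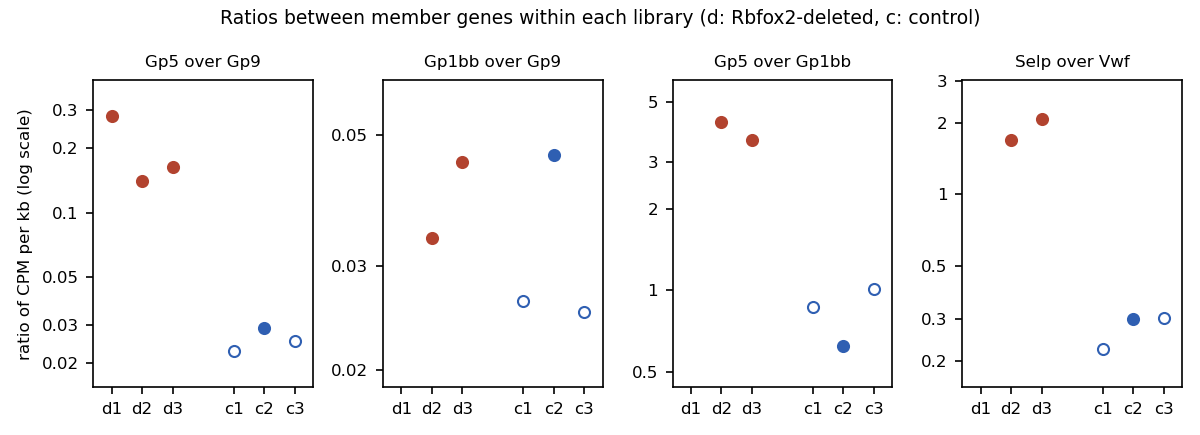
Ratio of CPM per kilobase between pairs of members in each library (vertical axis, log scale; d1 to d3 labelled Rbfox2-deleted, c1 to c3 controls, open circles counted as 1 sample). Ratios of 0 or with no reads in the denominator have no point. A length bias that differs between libraries is not removed, and ratios with Gp1bb are uncertain because Sept5 overlaps its exons. Gp5 over Gp9 is 0.141 to 0.281 in d1 to d3 and at most 0.0289 in the controls, and Gp1bb over Gp9 overlaps.

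Itga2b (chr11:102453297-102470122, minus strand) encodes the αIIb chain (CD41) of the fibrinogen receptor. It had 10.6, 15.5 and 44.9 CPM in libraries labelled Rbfox2-deleted, against 15.1, 12.3 and 15.5 CPM in the controls. A single library, Rbfox2-deleted 3, was high, and the others lay near or below control. The log2 fold change was 0.62 (SE 0.921) and turned to -0.09 without Rbfox2-deleted 3. Its partner chain Itgb3 had 0, 18.5 and 9.12 CPM in libraries labelled Rbfox2-deleted, against 14.1 to 17.5 CPM in the controls (edgeR adjusted p = 0.96). The 2 chains of the integrin were therefore not ordered alike, since Rbfox2-deleted 3 was highest for Itga2b and in the middle of its group for Itgb3.

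Selp (chr1:164115264-164150026, plus strand) encodes P-selectin, the granule membrane protein that binds leukocytes once it reaches the surface. Its values were 0, 12.8 and 17.0 CPM in libraries labelled Rbfox2-deleted, against 2.19, 1.22 and 2.79 CPM in the controls. Libraries 2 and 3 labelled Rbfox2-deleted lay well above each control, and Rbfox2-deleted 1 lay below each of them, so the groups overlapped. With all 5 samples the means were 9.93 ± 8.86 CPM (SD, n = 3) and 1.87 ± 0.915 CPM (SD, n = 2), and without Rbfox2-deleted 1 the 2 remaining libraries of that label had 14.9 ± 3.02 CPM (SD, n = 2). The corresponding log2 fold changes were 2.21 (SE 2.3) and 2.78 (SE 0.855). Per kilobase, Selp stood at 0, 1.69 and 2.08 of Vwf in libraries labelled Rbfox2-deleted, against 0.224, 0.299 and 0.303 in the controls. In Rbfox2-deleted 1 that was 0 reads of Selp over 3 of Vwf, too few to measure a ratio. Like the subunit pairs, this pair was chosen after its values were seen. Gm16548 on the other strand shares 9.9% of the exon bases of Selp, and without strand its reads cannot be told apart there.

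Vwf (chr6:125546774-125686679, plus strand) encodes von Willebrand factor, stored in platelet α-granules and in endothelial cells. It had 0.128, 19.4 and 21.0 CPM in libraries labelled Rbfox2-deleted, against 25.2, 10.5 and 23.7 CPM in the controls. Rbfox2-deleted 1 held 3 reads of it, and libraries 2 and 3 lay inside the range of the controls. The log2 fold change was -0.56 (SE 1.63), and 0.01 (SE 0.56) without Rbfox2-deleted 1. Pf4 (chr5:90772435-90773383, plus strand) encodes platelet factor 4, a chemokine of the same granules. It had 0, 31.6 and 59.4 CPM in libraries labelled Rbfox2-deleted, against 60.0, 114 and 59.4 CPM in the controls. The groups did not overlap once controls 1 and 3 were summed (59.7 CPM), by a margin under 1 CPM, and Rbfox2-deleted 3 equalled control 3 on its own. Its log2 fold change was -1.76 (SE 1.86), and -1.20 (SE 0.458) without Rbfox2-deleted 1.

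F2rl2 (chr13:95696853-95702739, plus strand) encodes PAR3, a thrombin receptor that in mouse platelets helps thrombin to act on PAR4. It had 1, 1 and 2 counts in libraries labelled Rbfox2-deleted, against 61, 320 and 99 counts in the controls, or 0.0426, 0.0281 and 0.06 CPM against 1.27, 6.2 and 1.8 CPM. All 3 libraries labelled Rbfox2-deleted were at the edge of detection, and control 2 stood above the other controls. Summed over libraries, 4 reads of 92470549 against 480 of 154689980 gave 1.39% of the control level (95% exact interval 0.378% to 3.59%, counting error only, since PCR copies were not marked). Control 2 gave 320 of the 480 reads, and without it the level was 2.79% of control (0.75% to 7.27%). The log2 fold change was -6.52 (SE 1.75), and -5.10 without control 2. F2rl2 lies inside Iqgap2 on the opposite strand without sharing exon bases, and Iqgap2 had 201, 56.5 and 61.3 CPM in libraries labelled Rbfox2-deleted, against 137, 88.8 and 137 CPM in the controls. Such near loss was seen elsewhere too, since 66 of 22969 identifiers had at most 2 counts in each library labelled Rbfox2-deleted and at least 50 in each control, while 4 showed the reverse. These were raw counts, and the libraries labelled Rbfox2-deleted were shallower. Rbfox2-deleted 1 also had at most 3 counts for 14.6% of genes with at least 100 counts in each other library. The pattern and its reverse were therefore not equally easy to meet.

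The other thrombin receptors did not share this pattern. F2rl3, which encodes PAR4, the main thrombin receptor of mouse platelets, had 191, 134 and 117 CPM in libraries labelled Rbfox2-deleted, against 62.2, 61.7 and 60.7 CPM in the controls. All values of the first set lay above those of the second, but the test did not pass (log2 fold change 1.24, SE 0.465, edgeR adjusted p = 0.467). Groups did not overlap on that side for 15.8% of all genes. F2rl3 also had 1 of the 2 smallest unadjusted edgeR p of its list in these data. Its separation was thus favoured by the choice. F2r, which encodes PAR1, had 0.383, 4.54 and 3.69 CPM in libraries labelled Rbfox2-deleted, against 2.55, 0.232 and 3.17 CPM in the controls (edgeR adjusted p = 0.961); it was looked up after the values of F2rl2 were seen. The differences between these receptors were not tested against each other.

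Tmem40 (chr6:115729131-115762410, minus strand) encodes a membrane protein found in platelets whose role is little known. It had 209, 292 and 227 CPM in libraries labelled Rbfox2-deleted, against 545, 661 and 534 CPM in the controls. The groups were far apart relative to their spread, and Rbfox2-deleted 1 was no exception here. Means were 243 ± 43.6 CPM (SD, n = 3) and 600.0 ± 86.3 CPM (SD, n = 2), with a log2 fold change of -1.39 (SE 0.268). Per kilobase of its longest transcript its mean level was 156 CPM in libraries labelled Rbfox2-deleted and 386 CPM in controls, and both means were above those of the other 8 members, although in Rbfox2-deleted 3 Gp9 was level with it (ratio 1.01). Tmem40 ranked 918, 622 and 830 among all identifiers in libraries labelled Rbfox2-deleted, against 349, 282 and 358 in the controls. Among the genes whose centred log2 CPM profile over the 5 samples lay closest to it were Sec16a, Anapc4, Phpt1 and Wasf2, with a root mean square distance of 0.107 to 0.145 on the log2 scale among 10986 genes. Closest to the median profile of the 9 members were Dnajc28, Jrk, Vipas39, Prkg1 and Bcs1l, at 0.258 to 0.296 among the same 10986 genes. No member lay closer than 0.63 to another (Gp9 to Tmem40). That value is the smallest of far fewer pairs and not a distance to a median profile. These distances therefore cannot be set against each other.

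**Figure D3:**
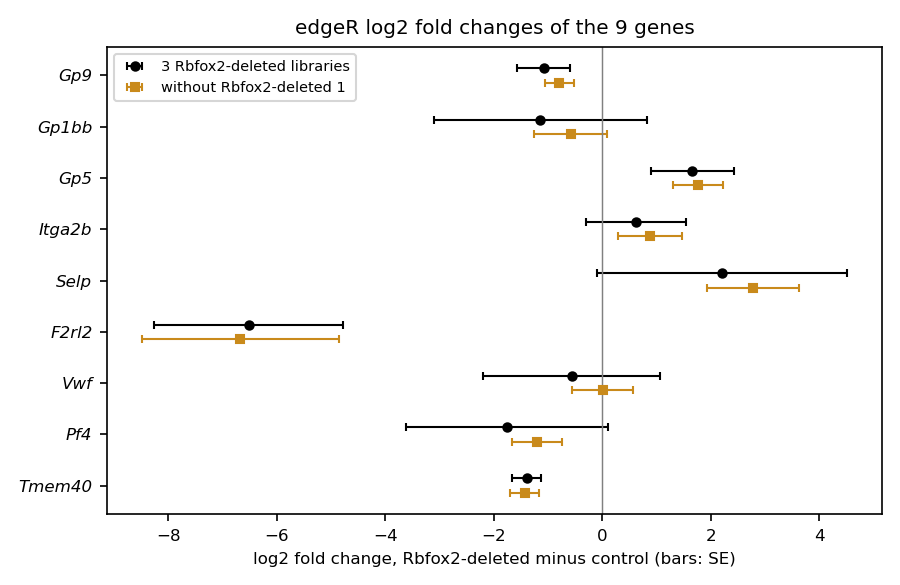
edgeR log2 fold changes (horizontal axis, Rbfox2-deleted minus control, bars SE) of the 9 members with all 3 libraries labelled Rbfox2-deleted (black circles) and without Rbfox2-deleted 1 (ochre squares). F2rl2 lies furthest below 0 at -6.52, Selp furthest above at 2.21, and Vwf is at -0.56 with all 3 and at 0.01 without Rbfox2-deleted 1.

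Taking the 9 members side by side, 6 had log2 fold changes below 0 and 3 above (Itga2b, Gp5 and Selp), with a median of -1.08, against a median of 0.11 over the 12350 genes tested. By edgeR's quasi-likelihood test with Benjamini-Hochberg adjustment over all genes, 0 of the 9 passed, as did 0.0% of all genes. At an unadjusted p under 0.05, F2rl2 and Tmem40 were lower (4.56% of all genes) and none was higher (5.33% of all genes). DESeq2 called F2rl2 as lower (1.76% of genes with an adjusted p) and Gp5 as higher (1.75%). Samples of the groups did not overlap for 4 members on the lower side (F2rl2, Gp9, Pf4 and Tmem40; 15.4% of all genes) and for Gp5 on the higher side (15.8%). Since the members were chosen with this contrast known, nothing is read from these shares. The signs of Gp5, Selp, Pf4, Gp1bb, Gp9, F2rl2 and Tmem40 held under all 16 alternatives tried. That of Vwf turned in 3 (0.02 with sex as a covariate, 0.08 without controls 1 and 3, 0.01 without Rbfox2-deleted 1). The sign of Itga2b turned in 1 (-0.09 without Rbfox2-deleted 3), and its log2 fold change was 0.01 with sex as a covariate. With a correction for transcript length the log2 fold change of Gp9, whose longest transcript has 881 bases, was -0.29 and the median of all genes 0.44. Relative to that median Gp9 stood at -0.73 (-1.19 before) and Gp5 at 1.18 (1.55 before). The same correction brought Pf4 from -1.76 to -0.87, Tmem40 from -1.39 to -1.01, Vwf from -0.56 to -0.23 and Selp from 2.21 to 1.98. Gp1bb, F2rl2 and Itga2b moved away from 0, to -1.55, -6.61 and 0.74.

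Rbfox2-deleted 1 had 0 or near 0 reads for Vwf, Pf4, Gp1bb and Selp, genes with at least 63 counts in every other library. Of 74 other megakaryocyte and platelet genes with at least 50 counts in each other library, 8 (10.8%) had at most 3 counts there, among them Itgb3, Ppbp and Treml1. Over all identifiers with at least 50 counts in each other library the share was 17.5% (1558 of 8923), a larger share than among the listed genes. Of 8 marker genes of mature platelets, all 8 were at 0 in it, but Tubb1, Gp6 and Mpig6b had at most 2 counts in every library, Gp1ba was also at 0 in control 2 and Clec1b in Rbfox2-deleted 3. The summed level of the 8, carried by Ppbp, Treml1, Itgb3 and, in some libraries, Clec1b and Gp1ba, was 0, 39.9 and 53.1 CPM in libraries labelled Rbfox2-deleted, against 50.8, 42.7 and 51.4 CPM in the controls. Red cell markers did not move as 1 group. Summed over 9 markers they had 501, 129 and 224 CPM in libraries labelled Rbfox2-deleted, against 121, 169 and 121 CPM in the controls, with Car1 at 0 in every library. Globin genes made up most of the sum in Rbfox2-deleted 1. Alas2 and Slc4a1 were also highest there, at 13.2 and 17.2 CPM, against at most 0.477 and 0.168 CPM in the other 5 libraries. Epor went the other way in Rbfox2-deleted 1, at 0.128 CPM, against 18.1 to 61.4 CPM in the other 5 libraries, and Klf1 was at 0. The part of these differences in the members' values was not tested, and fewer cells of a type cannot be told apart from less RNA per cell.

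The rest of the megakaryocyte programme was described with 104 further genes in 4 lists, of which 103 matched an identifier and 90 were tested. None passed by edgeR (0.0% of all genes), and at an unadjusted p under 0.05, 8 were higher (8.89%, against 5.33% of all genes) and 5 lower (5.56%, against 4.56%). The 5, named here after their values were seen, were Cd63, Lyst, Srgn, Stx11 and Vamp8. DESeq2 called 2 as lower, Lyst and Stx11 (2.15% of 93 with an adjusted p, against 1.76% of all genes). It called none as higher (1.75% of all genes). Without Rbfox2-deleted 1 it called 13 of 103 as higher and 9 as lower. Over all 20415 genes fitted in that setting it called 1187 as higher and 1208 as lower, or 2395 together, against 482 of 20697 with all samples. Genes fitted include genes without an adjusted p, which could not be called. With all samples 13738 of the 20697 had one, against 93 of the 103 listed genes. Shares of genes fitted therefore cannot be compared between the listed genes and all genes. Of the 90 genes, 57 had log2 fold changes above 0, with a median of 0.44, where 53.5% of all genes lay above 0 with a median of 0.11; the median of the 90 was 0.15 without Rbfox2-deleted 1 and 0.02 with sex as a covariate. Groups did not overlap for 22 of the 90 on the higher side (24.4%, against 15.8% of all genes) and 9 on the lower (10%, against 15.4%).

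Among 19 platelet receptors tested, 11 lay above control (57.9%, against 53.5% of all genes). Their median log2 fold change was 0.22, and 0.49 without Rbfox2-deleted 1. Tbxa2r, the thromboxane receptor, had 104, 89.8 and 85.0 CPM in libraries labelled Rbfox2-deleted, against 36.4, 8.85 and 31.2 CPM in the controls (log2 fold change 2.12, SE 0.697, edgeR adjusted p = 0.414). Its log2 fold change was 1.49 without control 2 and 3.26 without controls 1 and 3. Of 28 cytoskeletal, signalling and enzyme genes, 19 lay above control (67.9%). Their median was 0.53, and 0.2 over 29 genes without Rbfox2-deleted 1. The thromboxane synthase gene Tbxas1 had 318, 555 and 609 CPM in libraries labelled Rbfox2-deleted, against 239, 165 and 233 CPM in the controls, and Fermt3, which encodes the integrin activator kindlin-3, had 401, 602 and 674 CPM against 257, 193 and 249 CPM. Neither passed (edgeR adjusted p = 0.387 each). Every library labelled Rbfox2-deleted lay above every control for these genes, and the groups did not overlap on that side for 15.8% of all genes. Tbxa2r, Tbxas1 and Fermt3 are named for having 1 of the 2 smallest unadjusted edgeR p of their list in these data. Their separation was thus favoured by the choice and adds nothing to the test.

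Of 23 genes of granule cargo and secretion, 13 lay above control (56.5%, against 53.5% of all genes) and 10 below. Their median was 0.51, and -0.38 without Rbfox2-deleted 1. Srgn and Lyst, and further on Nfe2 and Hhex, are named for having the 2 smallest unadjusted edgeR p of their list in these data. Their separation between the groups was thus favoured by the choice. Srgn, the proteoglycan that packs Pf4 into granules, had 688, 675 and 714 CPM in libraries labelled Rbfox2-deleted, against 1387, 1108 and 1366 CPM in the controls (log2 fold change -0.90, SE 0.239, edgeR adjusted p = 0.387). Its values were within 40 CPM of each other in libraries labelled Rbfox2-deleted and lay below every control. Lyst, which shapes lysosome-related granules, had 1 count in each library labelled Rbfox2-deleted, against 258, 258 and 343 counts in the controls (edgeR adjusted p = 0.387). Among 20 transcription factors, 14 lay above control (70%), with a median of 0.45, and 0.15 without Rbfox2-deleted 1. Gata1 had 73.4, 29.5 and 35.7 CPM in libraries labelled Rbfox2-deleted, against 17.5, 7.78 and 18.6 CPM in the controls, without overlap (log2 fold change 1.88, SE 0.861, edgeR adjusted p = 0.56). That log2 fold change was 1.12 without Rbfox2-deleted 1, 1.05 with sex as a covariate and 2.50 without controls 1 and 3. Nfe2, a factor needed for platelet release, had 1995, 1105 and 1369 CPM in libraries labelled Rbfox2-deleted, against 733, 669 and 723 CPM in the controls (edgeR adjusted p = 0.472), and Hhex had 86.0, 154 and 164 CPM against 69.4, 61.2 and 72.7 CPM (edgeR adjusted p = 0.487). Fli1 and Runx1 overlapped between the groups (log2 fold changes -0.21, SE 0.905, and 0.51, SE 0.642; edgeR adjusted p = 0.979 and 0.912).

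**Figure D4:**
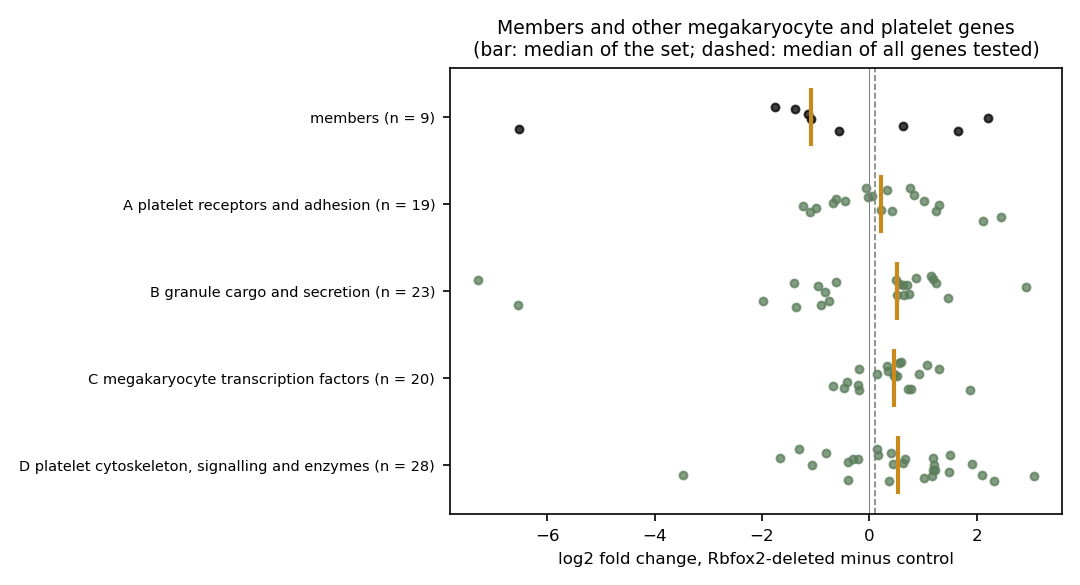
edgeR log2 fold changes (horizontal axis, Rbfox2-deleted minus control) of the 9 members and of the tested genes of the 4 further lists, 1 point a gene. Bars are set medians (-1.08 for the members, 0.22, 0.51, 0.45 and 0.53 for the lists) and the dashed line is the median of all genes, 0.11.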

How the data were processed

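RNA of 6 libraries of sorted mouse stem cells was sequenced after Smart-seq2, which amplifies full-length cDNA without strand or molecular identifiers, per the labels' protocols. The values used were raw counts per gene, deposited by the authors in 1 table. The submitters' processing notes name Trimmomatic 0.39, featureCounts, DESeq2 1.36.0 and mm10; the sources used here do not give the aligner, annotation or strand setting. Rows sharing an identifier (60 identifiers, 0.449% of counts) were summed, and 22831 identifiers matched a symbol. Lengths, positions and overlaps came from GENCODE M21 of the same build, with the longest transcript as length, which need not be the form expressed.

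CPM were counts over the library total. Counts of controls 1 and 3 were summed, and the 5 samples entered a fit by edgeR 4.0.16 under R 4.3.3 (quasi-likelihood F test, two-sided, after filterByExpr at a minimum count of 10 and TMM scaling, Benjamini-Hochberg over 12350 genes, threshold 0.05). SE was the fold change over the square root of F. P-values measure only the spread between these samples, and the common dispersion was 1.09. The same code was tested on simulated data. Members and lists were chosen with earlier results of these data known. Likeness was measured on log2(CPM + 0.5) of genes averaging at least 1 CPM, predicted genes left out. Named genes were the members, 6 genes fixed by name and, in each list, the 2 smallest p; a few of these are not reported here. Alternatives were DESeq2 1.42.0, other scalings and filters, 6 separate libraries with and without a replicate block, sex, transcript length, and leaving out samples.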

Additional observations from a re-analysis of the deposited data

How the results depend on the processing

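The edgeR count of 0 genes held under every scaling, filter, covariate and left-out sample tried. DESeq2 called 482 of 20697 genes fitted, 2 of 9 members (F2rl2 and Gp5) and 2 of 103 listed genes. Only 13738 of the genes fitted had an adjusted p, against 93 of the 103 listed genes, so shares of genes fitted cannot be compared between them. Without Rbfox2-deleted 1, a choice made after seeing the data, it called 2395 of 20415 genes fitted. Among them were 5 of 9 members (F2rl2, Gp5, Gp9, Selp and Tmem40) and 22 of 103 listed genes (13 higher, 9 lower). Members were chosen with this contrast known, so nothing is read from these counts. The cause of the change in calls was not tested. The log2 fold change of Rbfox2 lay between -3.76 and 1.90 when samples were left out in turn, with the highest value without controls 1 and 3. Signs turned for Fli1 (0.13 with a length correction, -0.60 to 0.28 leaving out samples), Runx1 (-0.10 to 0.78 leaving out samples, -0.13 by DESeq2 without Rbfox2-deleted 1) and Itgb3 (0.04 with sex as a covariate); the cause was not tested. Whether replicate numbers pair the libraries could not be decided. Correlations of same-numbered deviations were -0.04, -0.00745 and 0.0464. Controls 1 and 3 were nearly identical, so they could not each match a different library labelled Rbfox2-deleted. With a replicate block over 6 libraries edgeR called 0 genes, and before adjustment 685 passed 0.05 as higher and 663 as lower. Upper quartile factors gave 339 and 1087 by the same count, where TMM gave 658 and 563. Levels under 3 counts (0.0544 to 0.128 CPM) were not measurable.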
